A study of Drosophila melanogaster with 4 samples.

Results

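The regions described here are the binding peaks of Suppressor of Hairless, Su(H), on chromosome arm 3R of Drosophila melanogaster. They are all entries of the deposited peak list whose sequence name is exactly 3R, which leaves out the scaffold 3RHet, and they number 3608 of 14384 peaks (25.1%). The list comes from chromatin immunoprecipitation and sequencing (ChIP-seq) in Kc167, an established cell line derived from embryos, and the labels give its stage as late embryonic, its sex as female and its genotype as se/e. Against Su(H) there were 3 ChIP libraries, numbered as replicates, and the reference was 1 input DNA library, which is chromatin sequenced without immunoprecipitation. All 4 libraries were fixed with 1.8% formaldehyde for 15 minutes, and the antibody was a rabbit polyclonal against residues 259 to 594 of Su(H). Because Kc167 is a single line grown in culture, the list describes this line and no tissue of the fly. Values of single libraries are not part of the list, which leaves peaks without a replicate error and the sequencing depth unknown, and no difference between arms was tested.

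The Notch pathway acts on genes through Su(H), a transcription factor that binds DNA directly. Without Notch activity it recruits co-repressors to its target genes, and when Notch is cleaved the intracellular part of the receptor joins Su(H) and Mastermind to activate the same genes. In flies the pathway is known for cell fate choices in the nervous system, the wing and the blood. Arm 3R is the right arm of chromosome 3 and carries, among many other genes, the Enhancer of split complex, the gene of the ligand Delta and both Hox clusters. Positions below are in FlyBase release 5, counted from the centromere end of the arm, and were not assigned to genes, since no annotation of that release was used here.

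The peaks on 3R ran almost from end to end of the assembled arm, in dense groups with long empty stretches between them. The first peak started at position 22638 and the last ended at 27898030, which was taken as the length of the arm. Together the peaks covered 2696 kb, or 9.67% of 3R, against 7.66% of 2L, 11.9% of 2R, 7.05% of 3L and 8.95% of X. Density was 129 peaks per Mb on 3R (exact Poisson 95% interval 125 to 134), against 98.7 on 2L, 154 on 2R, 89.0 on 3L and 112 on X. Such intervals, and the exact binomial ones below, cover counting error over peaks only, and peaks that lie in groups are not independent. By both measures 3R stood below 2R and above the other 3 long arms.

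**Figure D1:**
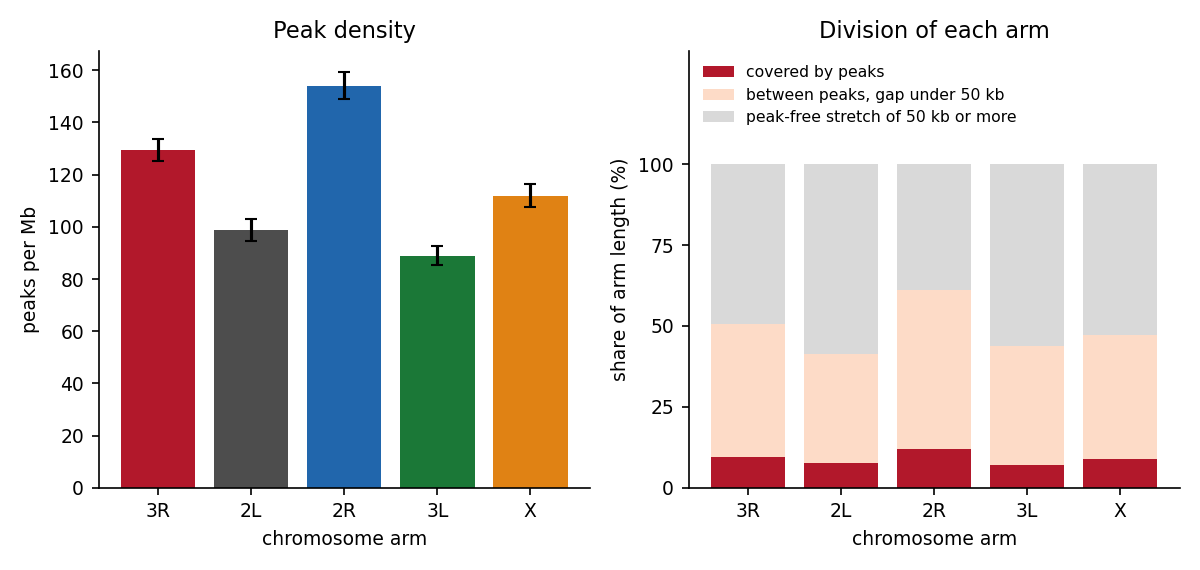
Left, peaks per Mb on each long arm, with exact Poisson 95% intervals as error bars. Right, the percentage of each arm covered by peaks, lying between peaks less than 50 kb apart, or lying in peak-free stretches of 50 kb or more; 3R had 129 peaks per Mb and 49.4% of its length in such stretches.

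Each peak has 1 score, deposited without a stated scale. The scores repeat at fixed steps, and 91 of 92 often repeated values lay within 0.015 of −log10 Poisson tail probabilities against a shared background of 195.9 fragments, so the score was read as such a value. On this reading, a peak whose score lies on this ladder of values was scored against the shared background, and a peak off it against another one. A score from another background can also fall on a step by coincidence. The count of fragments that would give the score, divided by 195.9, is the fold over background, and for peaks off the ladder it is an upper bound if their background was higher. Peaks in the highest 10% of scores of the whole list (106.8 or above) are called strong, those in the lowest 50% (16.1 or below) weak, and the rest intermediate. The members nearest to the limit for strong peaks had scores of 107.29 inside it and 106.76 outside it.

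Most peaks on 3R were weak, and the strong ones took up much of the covered sequence. There were 329 strong, 1236 intermediate and 2043 weak peaks, with median widths of 2388, 688.5 and 311 bp. Strong peaks were 9.12% of the peaks on 3R (exact 95% interval 8.20% to 10.1%), where they are 10% of the whole list by definition, and they made up 33.4% of the covered length. With the highest 5% of scores taken as strong instead, the share on 3R was 5.29%, so 3R was then above the share of the whole list and not below it. Weak peaks were 56.6% of those on 3R (55.0% to 58.2%), against 44.4% on 2L, 53.1% on 2R, 46.8% on 3L and 51.6% on X. At the median, the fold over background was at most 4.46 for strong and at most 1.53 for weak peaks. A fold of 4 could be reached by 206 peaks, or 5.71% of those on 3R, near the 5.65% of the whole list.

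In windows of 1 Mb, from the centromere to the telomere, the number of peaks went up and down between neighbouring windows with no long rich or poor block. The 27 complete windows held 54 to 252 peaks, with a median of 128, against medians of 69 on 2L, 158 on 2R, 67.5 on 3L and 113 on X. The coefficient of variation between windows was 39.7% on 3R, against 73.4% on 2L, 38.1% on 2R, 75.5% on 3L and 41.8% on X. The lowest window of 3R had 54 peaks, against 12 on 2L, 54 on 2R, 12 on 3L and 44 on X, so 3R held no window as empty as the emptiest ones of 2L and 3L. Over all 116 complete windows of the long arms the quartiles were 64 and 161.5 peaks. On 3R, 20 windows lay between these values, 5 above and 2 below, and no 3 windows in a row lay above or below them. The numbers of peaks in neighbouring windows had a Spearman's rho of 0.03 over the 27 windows of 3R, against 0.42 on 2L, 0.52 on 2R, 0.71 on 3L and 0.29 on X. In windows of 100 kb the rho was 0.22 on 3R, against 0.40 on 2L, 0.27 on 2R, 0.46 on 3L and 0.30 on X. These correlations describe windows of the same list and carry no test.

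The richest window was that from 19 to 20 Mb, with 252 peaks, of which 20 were strong and 145 weak. The next was from 5 to 6 Mb, with 238 peaks on 19.5% of its length. It held 26 strong peaks, the largest number in any of the 116 windows, where the other long arms reached at most 21. With its neighbour from 4 to 5 Mb (168 peaks) it formed the only adjacent pair of windows above the upper quartile on 3R. The window next to the centromere, from 0 to 1 Mb, had 187 peaks and was the third richest. Its neighbour from 1 to 2 Mb, with 161 peaks, lay just below the upper quartile of 161.5.

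The poorest windows did not lie next to each other. They were those from 15 to 16 Mb with 54 peaks, from 3 to 4 Mb with 57 and from 6 to 7 Mb with 65, the last directly distal to the second richest window. In the window from 15 to 16 Mb the peaks covered 4.11% of the sequence, the lowest share on the arm, where the median window had 9.47%.

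Windows rich in weak peaks were not always rich in strong ones. The window from 1 to 2 Mb held 161 peaks but 6 strong ones, and 72.7% of its peaks were weak. The window from 17 to 18 Mb held fewer peaks, 128, but 23 strong ones, and the 2 poorest windows of the arm still held 9 strong peaks each. The fewest were 5, from 24 to 25 Mb. Over the 27 windows the numbers of weak and of strong peaks had a Spearman's rho of 0.29, against 0.27 on 2L, 0.56 on 2R, 0.38 on 3L and 0.29 on X, and over the 278 windows of 100 kb on 3R it was 0.41, all as a description. The coefficient of variation beyond counting noise was 43.1% for weak and 34.8% for strong peaks.

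**Figure D2:**
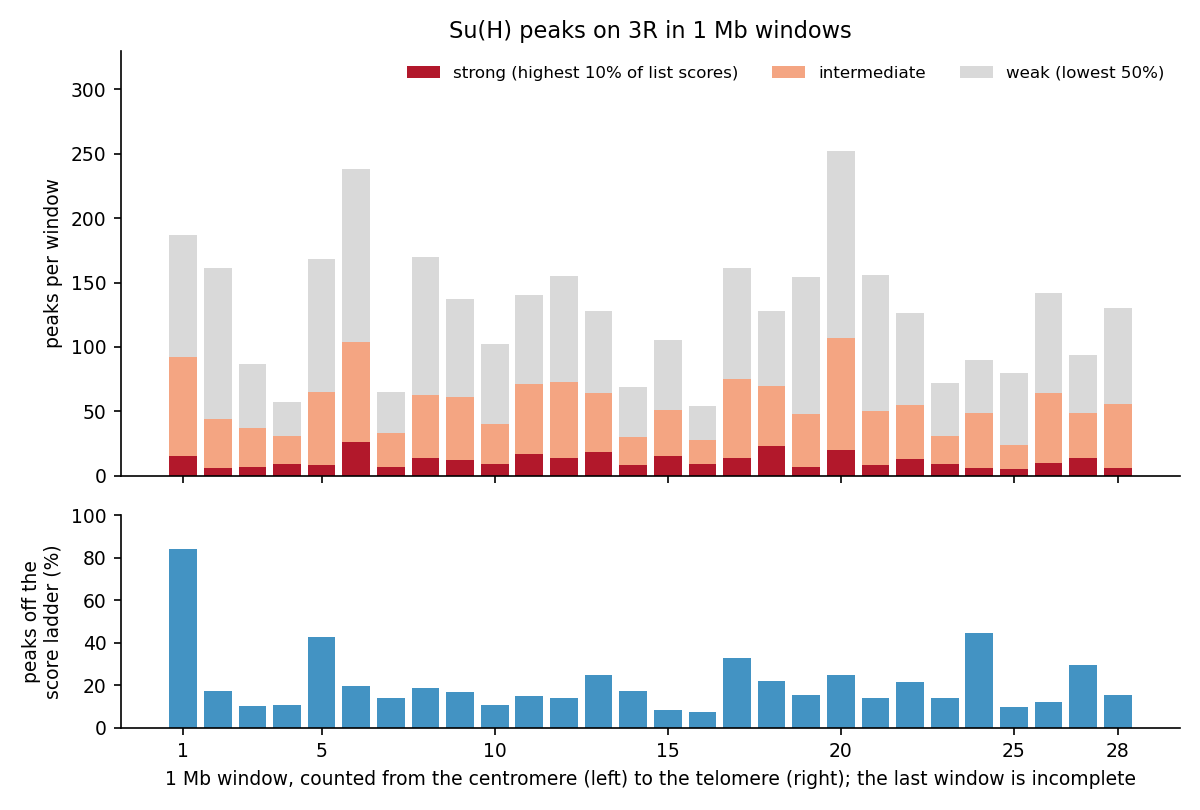
Peaks on 3R in 28 windows of 1 Mb from centromere to telomere. Upper panel, number of strong, intermediate and weak peaks per window, from 54 to 252 in the complete windows; lower panel, percentage of peaks whose score lay off the ladder, which was 84.0% in the first window.

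Cut into 3 equal parts of 9.30 Mb, the arm was slightly denser in peaks near the centromere. There were 139 peaks per Mb in the proximal part (131 to 147), 122 in the middle part (115 to 129) and 127 in the distal part (120 to 134). The interval of the proximal part overlaps with that of the distal part and not with that of the middle. Strong peaks had another order, with 11.3 per Mb in the proximal (9.24 to 13.7), 14.2 in the middle (11.9 to 16.8) and 9.89 in the distal part (7.98 to 12.1). The intervals of strong peaks in the middle and distal parts overlap narrowly, and those of the proximal part overlap both. All these intervals leave out the variation between windows. Beyond counting noise, the coefficient of variation of peaks between 1 Mb windows of 3R was 38.7%. Whether the parts differ beyond that was not tested. The covered share was 10.3%, 9.57% and 9.12% from the proximal to the distal part.

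At a finer scale, in windows of 100 kb, most of the peaks were packed into a small part of the arm. Of the 278 complete windows, 54 (19.4%) held 50% of the peaks, against 13.1% of windows on 2L, 21.3% on 2R, 14.3% on 3L and 17.9% on X. The median window of 3R held 9 peaks, with quartiles of 3 and 19. Windows without a peak numbered 25 of 278 on 3R (8.99%, exact 95% interval 5.90% to 13.0%), against 39 of 229 on 2L (17.0%), 20 of 211 on 2R (9.48%), 39 of 245 on 3L (15.9%) and 33 of 223 on X (14.8%). In this respect 3R and 2R had similar shares, and the other 3 arms had larger ones. Strong peaks were missing from 108 windows of 3R (38.8%).

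The windows with the most peaks were not always those with the most covered sequence. The largest number, 54, was from 8.2 to 8.3 Mb, where 36 of the peaks were weak and the covered length was 31.5 kb. Next came 51 peaks from 19.1 to 19.2 Mb, 48 from 16.9 to 17.0 Mb, and 47 each from 5.3 to 5.4 and from 7.4 to 7.5 Mb. By covered length the window from 12 to 12.1 Mb came first. It held fewer peaks, 44, of which 7 were strong, 13 weak and 7 at least 3 kb wide. The window from 17.4 to 17.5 Mb was second, and its 10 strong peaks were the largest number in any 100 kb window of the long arms, where the other arms reached at most 8. The next windows by covered length were from 5.3 to 5.4 Mb (44.3 kb), from 19.1 to 19.2 Mb (40.6 kb) and from 4.8 to 4.9 Mb (40.3 kb).

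**Figure D3:**
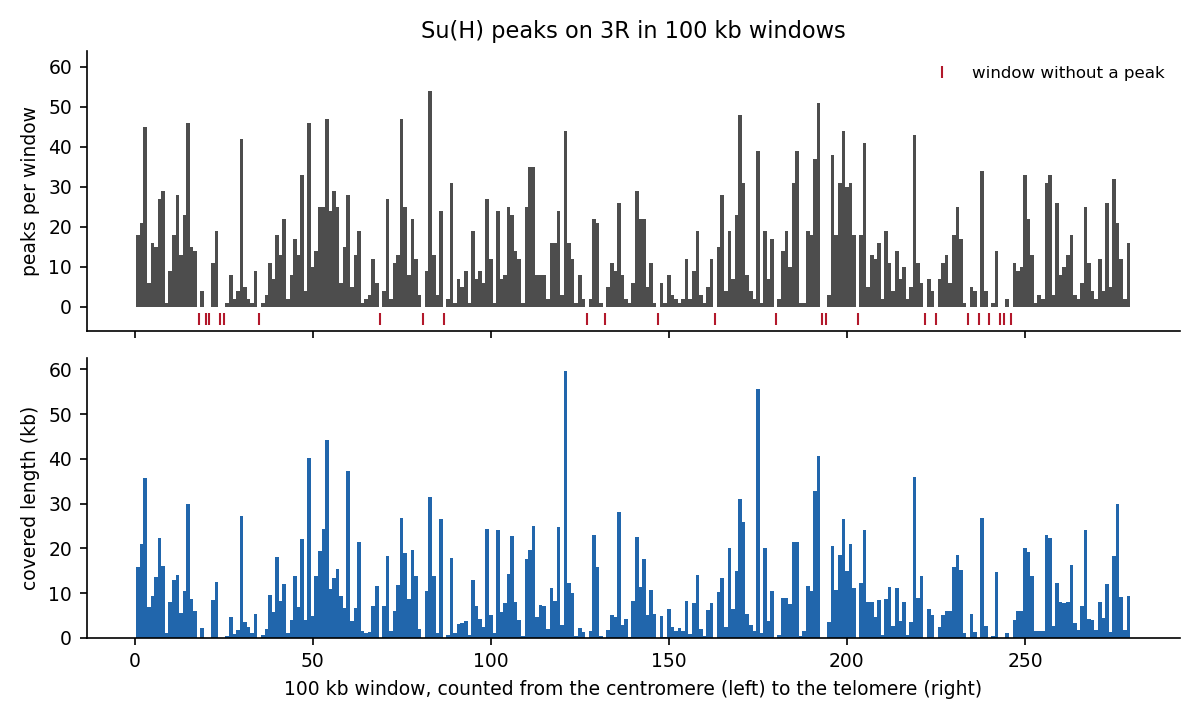
Number of peaks (upper panel) and length covered by peaks in kb (lower panel) in windows of 100 kb along 3R, from centromere to telomere, with red ticks under the windows that held no peak. Peak counts reach 54, and 2 windows stand out in covered length, with 59.6 and 55.7 kb.

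Peak-free stretches of 50 kb or more took up nearly as much of 3R as the groups of peaks between them. There were 138, with a median length of 81.8 kb, and they added up to 13.8 Mb or 49.4% of 3R, against 58.7% of 2L, 38.8% of 2R, 56.3% of 3L and 52.7% of X. In number they stood at 4.95 per Mb on 3R (exact Poisson 95% interval 4.16 to 5.84), against 5.18 on 2L, 3.93 on 2R, 5.06 on 3L and 4.65 on X. On 3R 47 of them reached 100 kb and 10 reached 200 kb.

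The longest stretch on 3R ran from 1834370 to 2171044 and measured 337 kb, against a longest of 394 kb on 2L, 279 kb on 2R, 471 kb on 3L and 444 kb on X. The third longest, from 2286698 to 2594069 (307 kb), lay distal to it, with a group of 30 peaks over 116 kb between them. The second longest, from 19185552 to 19493582 (308 kb), lay inside the richest window of the arm. The fourth (23826010 to 24090562, 265 kb) and the fifth (24167656 to 24428240, 261 kb) lay close together. Between them were a lone peak, a shorter stretch of 55.8 kb and a group of 14 peaks. The ninth (23531577 to 23732651, 201 kb) lay just proximal to the fourth. Some of the longest empty stretches thus lay near each other, and 1 was set within dense sequence.

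Peaks at the edge of such a stretch were more often strong than the peaks of the arm as a whole. Of the 258 peaks that bordered one, 48 were strong (18.6%, exact 95% interval 14.0% to 23.9%), where 9.12% of all peaks on 3R were. Weak peaks were 44.2% of the bordering ones (38.0% to 50.5%) and 56.6% of all. These shares were compared after the stretches had been seen, without a test. An example is the peak from 6710243 to 6718848, which scored 636.51 over a width of 8606 bp and after which 234530 bp held no peak. The peak from 17866879 to 17870651 (score 672.07) was followed by 150226 bp without a peak, and its nearest strong neighbour was 168 kb away. By contrast, both edges of the second longest stretch were weak peaks, with scores of 7.70 and 13.65.

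The peak-free stretches divided 3R into 139 islands of peaks, with a median length of 68.1 kb and a median of 13 peaks. Of these islands, 22 held 50 peaks or more and together had 54.0% of the peaks on 23.2% of the arm. At the other end, 18 islands (12.9%) were a lone peak, 4 of them strong, against 28.3% of the islands on 2L, 9.52% on 2R, 15.2% on 3L and 11.4% on X. No strong peak was found in 39 islands. The longest island of 3R measured 481 kb, against 707 kb on 2L, 791 kb on 2R, 713 kb on 3L and 564 kb on X.

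That island ran from 5154304 to 5634933 and held 173 peaks, 12 of them strong, on 25.6% of its length. The second, from 19711396 to 20182897 (472 kb), held 154 peaks, with 10 strong. From 18182787 to 18607535 an island of 425 kb had 114 peaks, 6 of them strong. Its highest score was 266.45, against 889.03 in the longest island and 474.47 in the second. Weak peaks were 79 of its 114, against 100 of 173 in the longest island and 102 of 154 in the second. These large islands thus differed in their highest score as well as in size.

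The highest peaks of 3R were spread over the arm, and several stood in the longest island. On 3R were 25 of the 100 highest-scoring peaks of the list, a share of the same size as the 25.1% of all peaks. The highest of all, from 27536815 to 27542203 in the last Mb before the telomere, scored 1270.81, or 10.4-fold over background. It opened a chain of 7 peaks, less than 1 kb apart from each other, that ended at 27556293. On its proximal side 20156 bp were free of peaks.

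Next in score was the peak from 5374432 to 5378039, with 889.03 and 8.37-fold, in the longest island. Within 50 kb on either side of its midpoint there were 56 peaks, itself included, of which 5 were strong. Also in this island were the eighth highest, from 5356347 to 5361300 (753.63, 7.60-fold), and 2 more of the first 20. The fifth highest (5051468 to 5054462, 799.86, 7.87-fold) lay about 100 kb proximal to the start of the island, with another strong peak 2.78 kb away. The interval from 5 to 6 Mb therefore held 3 of the 10 highest peaks of the arm.

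The third highest peak, from 16606916 to 16611741, scored 833.22 (8.06-fold). It lay just distal to a run of 516 kb without a strong peak, which started at 16087890 and held 60 weaker ones, and its nearest strong neighbour was 4.17 kb away. The fourth, from 7597800 to 7602174, scored 800.75 (7.88-fold). The sixth, from 25596443 to 25601698, scored 782.88 (7.77-fold). The peak that ends at 25601698 had 53 peaks in the 100 kb around its midpoint, but 2 strong ones, itself included. The seventh ran from 14020840 to 14025335 (758.92, 7.64-fold). The ninth ran from 26273970 to 26277399 (736.05, 7.5-fold). The tenth, from 184797 to 187475 (728.18, 7.46-fold), was near the centromere, in the window where most scores lay off the ladder, although its own lay on it. All 10 were on the ladder, with widths of 2679 to 5389 bp.

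A high peak did not need a dense surrounding. The peak from 13768535 to 13770325, fifteenth on the arm with a score of 679.76, had 1 other peak in the 100 kb around it, which was strong, and 131930 bp without a peak on its proximal side. The peak from 7711521 to 7714714 (715.12) was 68.4 kb from its nearest strong neighbour between midpoints.

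None of the 10 widest peaks was among the 10 highest. Of the 30 widest and the 30 highest, 7 were shared. The widest peak of 3R, from 4878115 to 4887209, measured 9095 bp with a score of 620.61, against a widest of 14124 bp on 2L, 10815 bp on 2R, 8304 bp on 3L and 22944 bp on X. The peak from 5907298 to 5916317 measured 9020 bp (score 394.99). The third, from 7804356 to 7813169, measured 8814 bp with a score of 267.11, the lowest among the 10 widest. The first 10 by width and the first 10 by score were thus different peaks. All 10 widest were strong, however, and the highest peak of the arm was 18th in width. Over all 3608 peaks width and score had a Spearman's rho of 0.74.

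The next widest were from 6710243 to 6718848 (8606 bp), from 20095887 to 20104386 (8500 bp), from 12063887 to 12071671 (7785 bp) and from 5239688 to 5247136 (7449 bp). The last of these was the highest of the 10 widest, with 671.22. The remaining 3 were from 631237 to 637847 (6611 bp), from 27546667 to 27553147 (6481 bp) and from 7583754 to 7590135 (6382 bp). The peak that ends at 27553147 stood in the same chain as the highest peak of the arm, 10.4 kb from it between midpoints. Scores of 2 of the 10 widest lay off the ladder, those from 12063887 and from 631237. Peaks of 3 kb or more were 125 on 3R, or 3.46% (2.89% to 4.11%), near the 3.35% of the whole list, and peaks of 5 kb or more were 27, or 0.748% (0.494% to 1.09%), where the whole list had 0.869%.

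**Figure D4:**
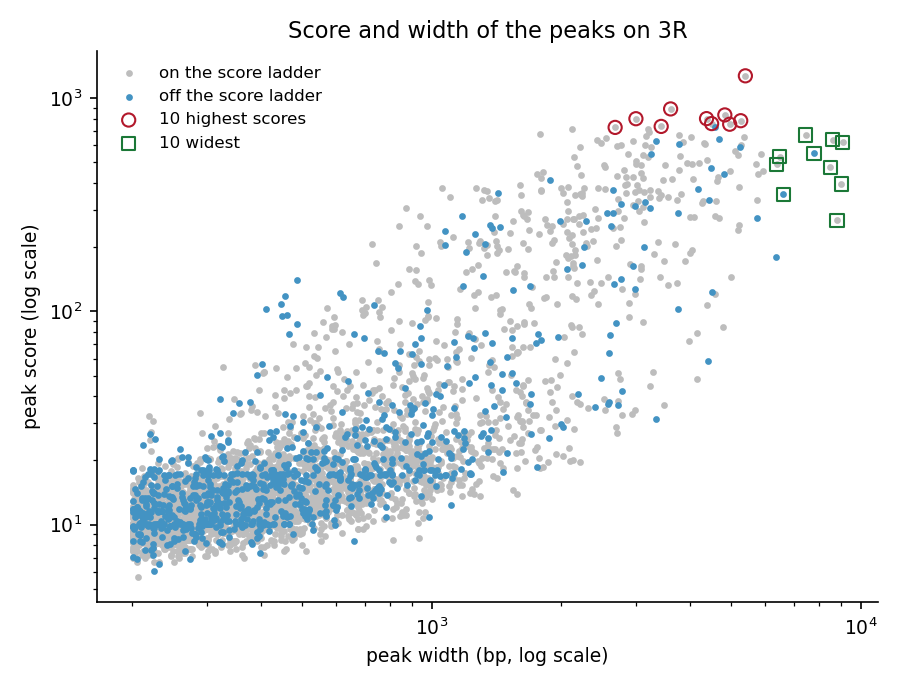
Score against width, both on log scales, for the 3608 peaks of 3R, coloured by whether the score lay on the ladder. Circles mark the 10 highest scores (widths 2679 to 5389 bp) and squares the 10 widest peaks (scores 267.11 to 671.22), which share no peak.

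Joining peaks less than 1 kb apart turned the 3608 peaks into 1563 regions, of which 809 (51.8%) were a lone peak. The largest by covered length, from 12042433 to 12085511, had 21 peaks that covered 38.1 of its 43.1 kb, with 5 strong peaks and 14 off the ladder. A region from 23755624 to 23779372 also had 21 peaks, but covered 16.0 kb and reached a score of no more than 133.19. These regions had the same number of peaks and differed in score and in covered length.

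Others among the first 5 by covered length were from 8523221 to 8547597 (20.4 kb), from 5902908 to 5925599 (19.8 kb), from 13522972 to 13544173 (18.2 kb) and from 27536815 to 27556293 (17.4 kb). The region that ends at 8547597 bordered directly on the sixth longest peak-free stretch of the arm, of 238 kb. Its last peak was weak, with a score of 9.0, although the region reached 542.08.

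Regions of weak peaks alone were common on 3R, with 689 of 1563 (44.1%), against 30.7% on 2L, 41.7% on 2R, 34.1% on 3L and 37.4% on X. Of the 285 regions that held a strong peak, 79 (27.7%) consisted of that peak, against 39.8% on 2L, 26.2% on 2R, 40.5% on 3L and 35.9% on X. In both respects the value of 3R was nearest to that of 2R. Counted over peaks, strong ones were alone about as often as others on 3R. Alone in their region were 79 of 329 strong peaks, 480 of 2043 weak peaks and 809 of all 3608 peaks. Of the weak peaks of 3R, 355 (17.4%) shared a region with a strong one.

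Some strong peaks lay close to other strong ones, with weaker peaks among them. Linking strong peaks whose midpoints were less than 20 kb apart, a distance chosen after the data were seen, gave 215 groups, of which 141 were 1 peak. The largest, from 17403711 to 17479563, had 10 strong peaks among 26 peaks in 75.9 kb, with a highest score of 642.04. The next ones had 6 each, from 10522160 to 10576043 (53.9 kb) and from 12027758 to 12078216 (50.5 kb). The longest stretch without a strong peak measured 649 kb, from 1528003 to 2176636, and held 32 weaker peaks, and the longest empty stretch of the arm lay inside it. The second, of 579 kb from 17870652 to 18450125, held 65 weaker peaks and lay distal to the window with the largest group. The median distance between neighbouring strong peaks was 39.6 kb on 3R, against 56.5 kb on 2L, 34.9 kb on 2R, 52.5 kb on 3L and 33.5 kb on X.

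In width, the peaks of 3R were slightly narrower at the median than those of the other long arms. At like scores they were mostly wider than those of 2L and 3L and mostly narrower than those of 2R, with no steady direction against X. The median width was 436 bp on 3R (95% interval of the median 423 to 449), against 455 on 2L (440 to 474), 461 on 2R (448 to 476), 463 on 3L (446 to 485) and 454.5 on X (438 to 471). All 4 of these intervals overlap with that of 3R. The 4 arms together had a median of 459 bp (451 to 468), and that interval lies above the one of 3R. Intervals of medians take peaks as independent, which peaks in groups are not, and separate intervals are no test between arms. Among the upper 50% of scores, however, the median was 835 bp on 3R, against 723 on 2L, 832 on 2R, 812 on 3L and 823 on X. In 10 bands of equal numbers of peaks by score, the median on 3R was above that of the other 4 arms together in 8. Arm by arm it was above that of 2L in 9 bands, of 3L in 8, of X in 4 and of 2R in 3, and above all 4 in the highest band alone. In the highest band it was 2368.5 bp on 3R, against 2018 on 2L, 2277.5 on 2R, 1937 on 3L and 2209 on X, and in the lowest 257 bp on 3R and 255 bp on the other arms together.

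In spacing, 3R did not stand apart at short range. From midpoint to midpoint, neighbours were a median of 1634.5 bp apart on 3R (95% interval 1580.5 to 1707.5), against 1569.5 on 2L (1485.5 to 1637), 1626 on 2R (1573 to 1695.5), 1820.5 on 3L (1720 to 1941.5) and 1748 on X (1641 to 1835.5). The interval of 3R lay below that of 3L and overlapped with the others. As for width, these intervals take distances as independent and are no test between arms. No peaks of 3R overlapped, and the smallest gap between neighbouring edges was 50 bp, with no smaller gap on any other long arm. Gaps under 1 kb were 56.7% of all on 3R, against 59.1% on 2L, 57.5% on 2R, 52.9% on 3L and 54.4% on X.

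The arms were further apart in their wide gaps. The largest 10% of distances began at 15.6 kb on 3R, against 21.4 kb on 2L, 13.2 kb on 2R, 28.3 kb on 3L and 17.5 kb on X. Peaks with 10 kb or more free on both sides numbered 121 on 3R (3.35%), against 5.60% on 2L, 3.13% on 2R, 6.78% on 3L and 4.36% on X. Isolated peaks thus had a share on 3R close to that on 2R and below those on 2L, 3L and X.

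**Figure D5:**
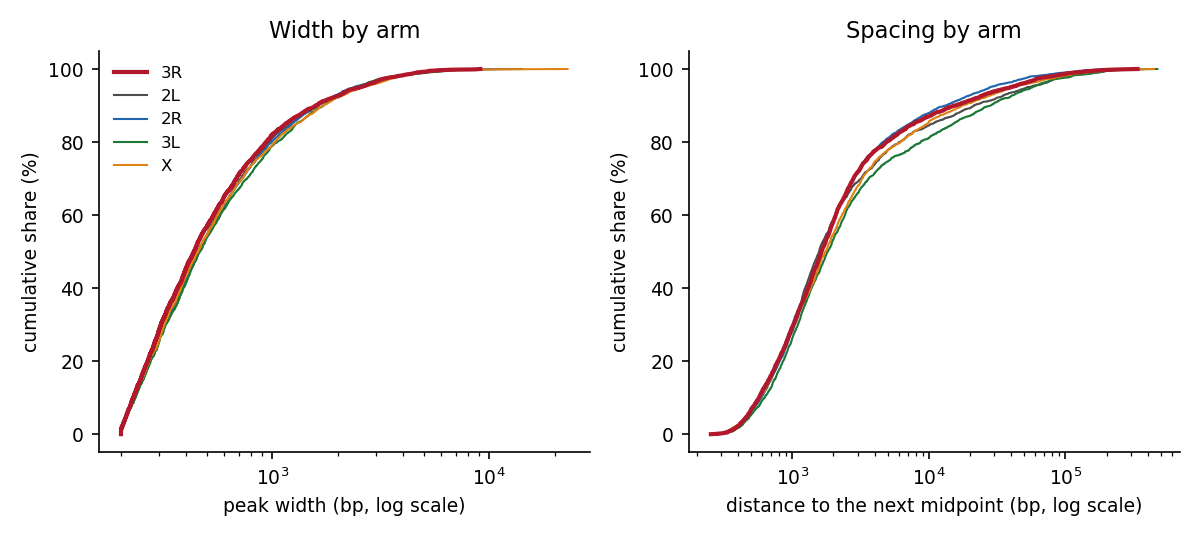
Cumulative percentage of peaks by width (left) and of neighbouring pairs by distance between midpoints (right) on the 5 long arms, with 3R as the thick red line. The curves nearly coincide up to the medians (436 bp and 1634.5 bp on 3R), and those of spacing separate at long distances.

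The share of peaks off the score ladder changed most at the end of the first Mb. It was 23.1% on 3R (exact 95% interval 21.7% to 24.5%), against 54.0% on 2L, 28.3% on 2R, 35.8% on 3L and 24.0% on X, where the whole list had 32.4%. The level depends on how close to a step a score must lie, since a tolerance of 0.004 in place of 0.0075 gave 39.5% on both 3R and X. The tolerance of 0.004 is smaller than the largest rounding error of the scores. It therefore also drops scores that lie on a step, and the rise to 39.5% cannot be read as more peaks with another background. In the first 0.5 Mb of 3R it was 77.4% of 106 peaks (68.2% to 84.9%) and in the next 0.5 Mb 92.6% of 81 peaks (84.6% to 97.2%). From 1.0 to 1.5 Mb it was 14.8% of 128 peaks (9.18% to 22.2%). Each of the 10 windows of 100 kb in the first Mb had at least 50% off the ladder, and the next window, from 1.0 to 1.1 Mb, had 22.2%. Without the first Mb the share on 3R was 19.8%.

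Further along, the share was higher again from 4 to 5 Mb (42.9% of 168 peaks), from 16 to 17 Mb (32.9% of 161) and from 23 to 24 Mb (44.4% of 90). It was lowest from 15 to 16 Mb, the window with the fewest peaks, with 7.41% of 54. The part of the background in the peak counts was not tested.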

How the data were processed

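The authors deposited 1 list of peaks for the series, with a start, an end and a score for each peak; its source column names MACS, and coordinates are of FlyBase release 5 per the file headers. Per the submitters' processing notes, the build was BDGP5 and the tools were MACS2, BWA and CASAVA (1.7.0.2, 1.7.0.3), with no role given. The sources used here do not give the calling threshold or say which libraries entered. From the deposited list, arm lengths were taken as the end of the last peak. Peaks were counted in windows by midpoint, and covered length was divided at window edges. The background of the score ladder was fitted on scores below 40 that at least 25 peaks had in common, and a peak was on it within 0.0075. The steps were checked on simulated data. No test was made, since no library has values. The named regions were set by rank (10 highest and 10 widest peaks, 5 longest stretches, 5 windows each by peaks and covered length, 3 richest and 3 poorest windows of 1 Mb, 5 largest joined regions), and others were named after their values were seen. The regions and measures were chosen with earlier results of these data known. Genes, sequences and motifs were not analysed, because the gene table at hand is of release 6. Tools were SciPy 1.17.1, NumPy 2.4.6, pandas 2.3.3, matplotlib 3.10.9 and Python 3.11.15.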

Additional observations from a re-analysis of the deposited data

Results flagged for a closer look

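The scaffold 3RHet, which holds heterochromatic sequence named after the same arm and is left out of the values above, carried 24 peaks and was listed because signal appears outside the assembled arm. Their median score was 22.2, against 14.9 on 3R, and their median width 441 bp, against 436 bp on 3R. The highest ran from 1517910 to 1519544, with a score of 159.38 off the ladder. Of the 24 peaks, 2 were strong and 9 (37.5%, exact 95% interval 18.8% to 59.4%) were off the ladder, against 23.1% on 3R.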

How the results depend on the processing

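With the upper 50% of scores, 3R had 56.1 peaks per Mb, a median width of 835 bp, a median spacing of 3765 bp, a covered share of 6.93%, medians of 4 peaks per 100 kb and 51 per 1 Mb window, and 26.2% of peaks off the ladder. With peaks under 1 kb apart merged, these were 56.0 regions per Mb, 982 bp, 6490 bp, 5 and 54 per window, and 18.2% held a strong peak. The median of 51 per 1 Mb window on 3R was below that on X (56) with the upper 50% of scores. Peaks per Mb on 3R stayed second to 2R in both, and the value was below that on X too with the highest 10% of scores, an alternative chosen after seeing the data (11.8 per Mb on 3R, against 13.1 on 2R and 12.7 on X). Measured edge to edge, the median spacing was 736 bp. With strong peaks taken as the highest 5% of scores, their share on 3R was 5.29%, above the 5% of the whole list, where with 10% it was below. A tolerance of 0.004 put 39.5% of the peaks of 3R off the ladder, the same as on X to 3 digits, but it is smaller than the largest rounding error of the scores. Without the first Mb, also chosen after seeing the data, the share was 19.8%. The 4 other alternatives, shifted windows and the number of peak-free stretches (138 after merging, 158 with the upper 50% of scores), moved less. Lower counts with fewer or merged peaks follow from how those settings are built. Changes of order among the arms, or against the whole list, are not fixed in that way and were not tested. The tests of genes, sequences and motifs planned at 3R peaks were not run for want of a release 5 annotation. No paired analysis was possible because single libraries have no values in the list, which also kept replicates from being left out. Depth is unknown, so no peak or empty window can be weighed by it.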
